A study of Mus musculus with 24 samples.

Results

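The genes described here are 10 markers of macrophages and monocytes, Adgre1, Csf1r, Cd68, Cd14, Itgam, Itgax, Mrc1, Cd163, Lyz2 and Mpeg1, measured in mouse colon, the distal part by the methods. They were taken as a fixed list of gene symbols, with earlier results of these data known, and all 10 were found among the 45616 gene names on the array, on 18 of its 56605 probes. Mrc1 and Lyz2 had 1 probe each, and the other 8 genes had 2. The probe with the highest mean over all arrays stood for a gene. Of the 10 markers, 9 were well above background on all 24 arrays and entered every test. Cd163 was not tested, because its brightest probe was well above background on 4 arrays and its second probe on 0.

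The samples came from C57BL/6J mice in 6 groups of 4 arrays. M and F were sham-operated males and females and F(OVX) were ovariectomized females, bought at 7 weeks of age and operated on 1 week later. After 14 days of recovery they ate either LFD, a low-fat diet with fat at 10 kcal%, or HFD, a high-fat diet with fat at 45 kcal%, for 14 weeks. Every group, the LFD groups included, received the carcinogen azoxymethane (10 mg/kg) and 3 cycles of the colitis-inducing agent dextran sulfate sodium (1.5%, 5 days each), and the colon was taken 75 days after azoxymethane, so that no group was healthy colon. The methods give 5 animals per group for the arrays, chosen for a body weight near the average of their group, while the labels give 4. Each of M, F and F(OVX) lay on a slide of its own, with the LFD arrays in the first row and the HFD arrays in the second, so that sex or surgery cannot be told apart from the slide, nor diet from the slide row. The mean level per array of 7 epithelial genes such as Epcam lay between 14.21 and 14.97 on the log2 scale. These genes mark epithelium and do not show which part of the gut it came from.

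Macrophages of the gut wall are replenished by blood monocytes, which enter the tissue, meet colony-stimulating factor 1 through its receptor Csf1r and mature into cells that engulf bacteria and dying cells. During colitis more monocytes arrive and the mixture shifts towards inflammatory cells. The markers stand for different steps of this life: Csf1r and the adhesion receptor Adgre1 for the lineage, Cd68, Mpeg1 (perforin-2) and Lyz2 (lysozyme M) for the machinery that destroys engulfed matter, Mrc1 (the mannose receptor) and Cd163 (the hemoglobin scavenger receptor) for endocytosis, Itgam and Itgax for integrin alpha chains that pair with the chain encoded by Itgb2, and Cd14 for the co-receptor of Toll-like receptor 4. In RNA of unsorted colon tissue, fewer cells of a type and less RNA per cell cannot be told apart. Neither is any marker private to macrophages, since Itgam is also carried by neutrophils and Itgax by dendritic cells.

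The region before the start of a gene shows how differently the markers are built. RefSeq promoters of assembly GRCm38.p6 were found for 7 of the 10 markers, and the 250 bases before the start are printed for 3 markers that varied together from array to array and for Itgam, which did not vary with them. Capitals mark GAGGAA on either strand, the core bound by the macrophage factor PU.1 (Spi1), and TGANTCA, the site of AP-1 factors. The stretches were chr2:14229164-14229413 on the plus strand for Mrc1, chr11:69666171-69666420 on the minus strand for Cd68, chr19:12460520-12460769 on the plus strand for Mpeg1 and chr7:128062390-128062639 on the plus strand for Itgam.
Mrc1: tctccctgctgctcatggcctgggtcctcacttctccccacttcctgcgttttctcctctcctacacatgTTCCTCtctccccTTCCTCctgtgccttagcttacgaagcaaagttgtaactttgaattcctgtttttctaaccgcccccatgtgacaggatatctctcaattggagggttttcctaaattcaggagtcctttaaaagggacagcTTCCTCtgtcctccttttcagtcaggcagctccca
Cd68: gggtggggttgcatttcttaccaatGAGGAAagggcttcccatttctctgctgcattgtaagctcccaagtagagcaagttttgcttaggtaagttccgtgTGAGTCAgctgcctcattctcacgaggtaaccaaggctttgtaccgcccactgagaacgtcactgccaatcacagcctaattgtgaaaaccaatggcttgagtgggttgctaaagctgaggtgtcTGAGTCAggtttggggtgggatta
Mpeg1: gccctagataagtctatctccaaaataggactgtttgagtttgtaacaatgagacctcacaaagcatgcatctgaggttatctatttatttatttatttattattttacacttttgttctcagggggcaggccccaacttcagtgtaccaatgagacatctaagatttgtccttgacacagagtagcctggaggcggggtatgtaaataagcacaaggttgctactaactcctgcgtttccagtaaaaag
Itgam: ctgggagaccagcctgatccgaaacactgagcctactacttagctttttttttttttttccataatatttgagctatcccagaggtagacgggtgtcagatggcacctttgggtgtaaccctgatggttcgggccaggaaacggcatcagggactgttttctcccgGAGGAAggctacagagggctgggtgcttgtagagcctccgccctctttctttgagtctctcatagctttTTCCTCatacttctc

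GAGGAA was found in 3 of the 7 promoters (Mrc1, Cd68 and Itgam) and in 23.3% of 32851 RefSeq promoters of this length. Mrc1 held 3 copies, the first bases of which lay 180, 167 and 35 bases before the start. TGANTCA was found in Cd68, 149 and 24 bases before the start, and in Itgax, 56 bases before it, against 6.7% of all promoters. The letters of neither motif were present in these windows of Mpeg1, Lyz2 and Cd163. Whether the motifs bear on how the markers varied was not tested. A match describes the letters and does not show that a factor binds there.

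Levels are given as log2 of the normalized signal, on which a difference of 1 is a doubling, and the level of 1 probe is not set against that of another. For 7 of the 9 measured markers the highest group mean was that of F + LFD, but neighbouring groups overlapped throughout the order of every marker. Csf1r ran from 11.74 ± 1.1 (SD, n = 4) in F + LFD to 10.86 ± 0.53 in F(OVX) + HFD. Mrc1 ran from 8.73 ± 1.20 in F + LFD to 7.72 ± 0.22 in F(OVX) + HFD. Mpeg1 had the same top group, at 11.23 ± 0.89, and its lowest mean in F + HFD, at 10.55 ± 0.79. For these 3 markers the SD within F + LFD exceeded the whole range of the group means. Cd14 and Itgam were ordered differently from these markers. Cd14 was highest in F(OVX) + LFD (12.14 ± 0.38) and F + LFD (12.13 ± 0.23) and lowest in M + LFD (11.54 ± 0.62). Itgam was highest in M + HFD (13.42 ± 0.25) and M + LFD (13.34 ± 0.11) and lowest in F(OVX) + HFD (12.90 ± 0.05). The deviations of its probe correlated at 0.98 with those of Idua, so that whether the probe reports Itgam is uncertain. The second Itgam probe was well above background on 1 array and gives no check.

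**Figure D1:**
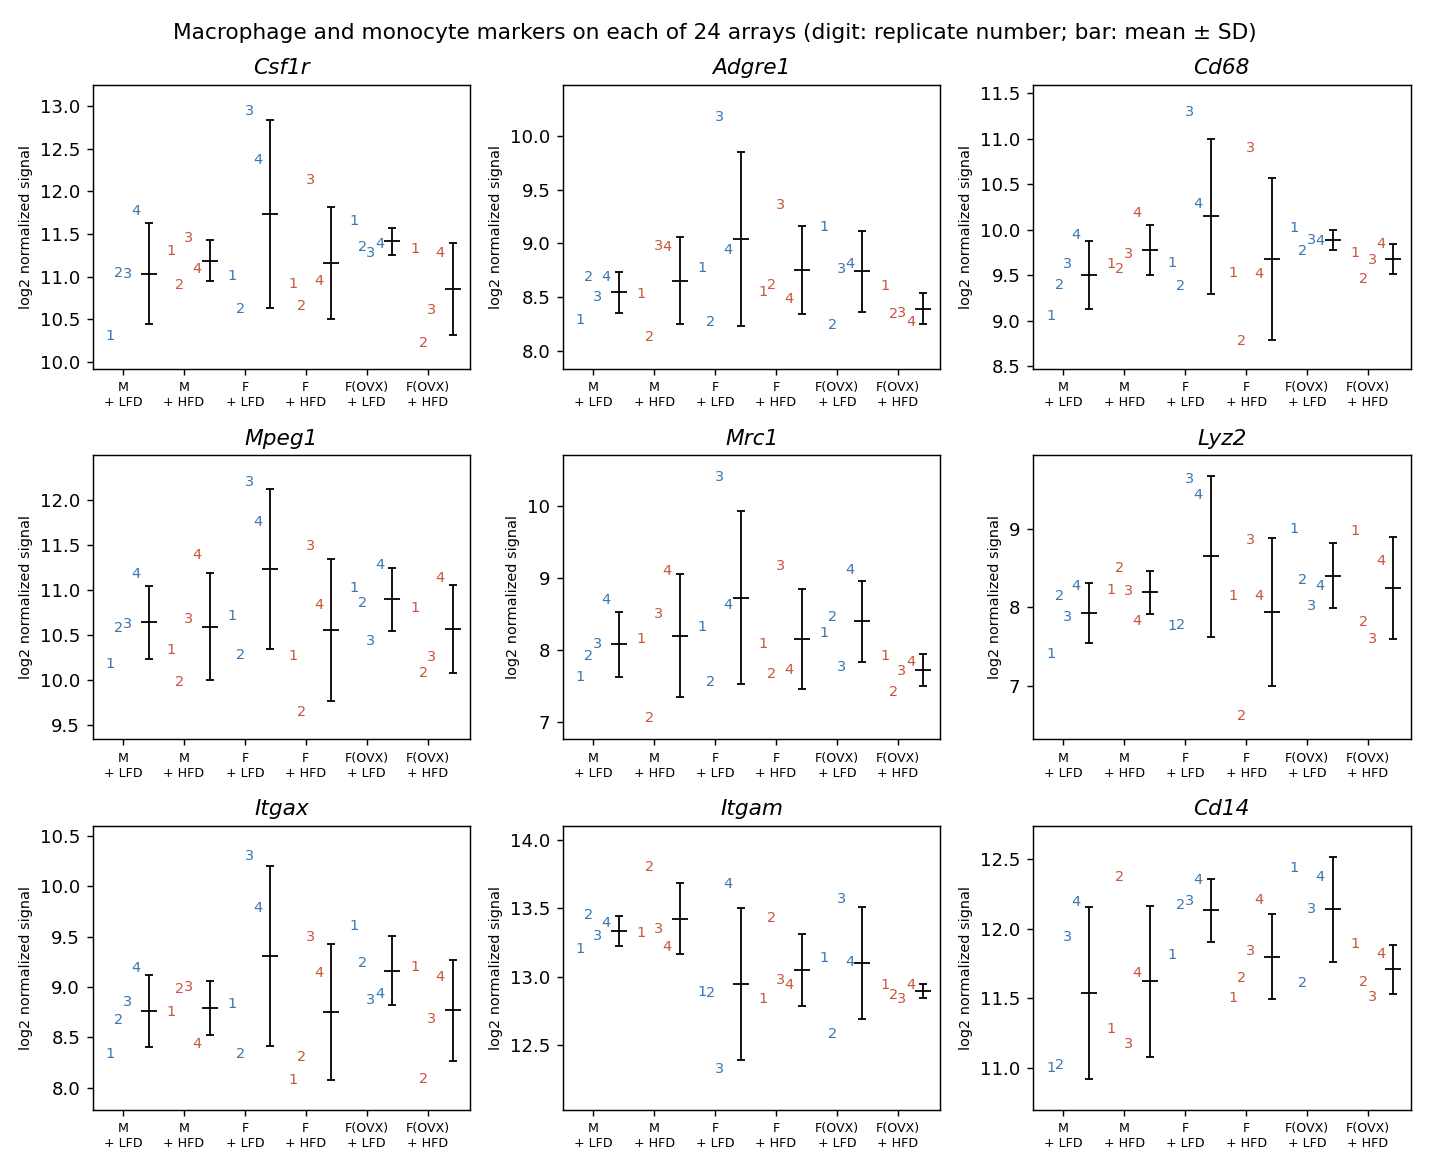
The vertical axes give the log2 normalized signal of 9 markers, and the horizontal axis gives the 6 groups, with LFD in blue and HFD in red. Each digit is the array of that replicate number, and the black bar is the group mean ± SD (n = 4). F + LFD 3 is the highest of the 24 arrays for Csf1r, Adgre1, Cd68, Mpeg1, Mrc1, Lyz2 and Itgax, and the groups overlap in every panel.

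Cd163 gave values near the floor of the array. It read 2.54, 5.7, 2.14 and 2.09 in M + LFD and 2.07, 5.34, 2.14 and 2.20 in F(OVX) + LFD, and it was between 1.99 and 2.28 on the F(OVX) + HFD arrays. Single arrays stood above the rest in several groups. No direction is given for this marker.

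The diet comparisons ask which genes the HFD changed in each kind of mouse, and a gene was called where it passed both thresholds of the study, a fold change of 1.5 or more and p under 0.05 before adjustment, in limma models fitted to all genes. After Benjamini-Hochberg adjustment no gene of the array passed 0.05 in any of the 3 diet comparisons, so every call below rests on unadjusted p-values. An exact permutation of the 8 arrays over 70 assignments cannot give a p under 0.0286.

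In males the markers hardly differed between diets. Among 20516 genes tested in M, 4.3% were called, and 0 of the 9 markers were, with 0 at an unadjusted p under 0.05 in limma and 0 called by the methods' t-test. The median log2 fold change of the markers was 0.11, with 8 of 9 higher in M + HFD, against a median of 0.01 over all genes. Cd68 read 9.05, 9.39, 9.62 and 9.94 in M + LFD and 9.62, 9.57, 9.73 and 10.18 in M + HFD. This was the largest difference of the 9, at 0.28 ± 0.22 (SE, limma unadjusted p = 0.249, adjusted p = 0.889). Mpeg1 alone was lower, by 0.05 ± 0.32 (SE). The 95% intervals of the 9 markers together spanned -0.83 to 1.07.

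M + LFD 1 and M + LFD 2 differed from the other arrays in Hoxb13, a gene of the distal colon, which read 2.18 and 5.04 on them and between 12.58 and 14.79 elsewhere. The mean deviation of the 9 markers from the group was -0.44 on M + LFD 1 and -0.05 on M + LFD 2, with 0 and 4 of 9 above the group mean. Without both arrays the median difference of the markers in M was -0.189 and again 0 were called. What the place of sampling along the colon contributed was not tested.

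In F the HFD arrays were lower for 8 of 9 markers, with a median log2 fold change of -0.56 against -0.004 over all 22085 genes tested, but the arrays of each diet were spread so widely that 0 of 9 were called, where 1.2% of all genes were. The median was -0.176 without F + LFD 3, -0.284 without F + HFD 2, -0.881 without F + HFD 3 and -0.882 without F + LFD 2. Again 0 markers had an unadjusted p under 0.05 in limma, and 0 were called by the methods' t-test. Lyz2 read 7.76, 7.77, 9.63 and 9.43 in F + LFD and 8.14, 6.62, 8.86 and 8.14 in F + HFD, a difference of -0.71 ± 0.60 (SE, limma unadjusted p = 0.268, adjusted p = 0.991). The 2 low and 2 high arrays of F + LFD enclosed most of the F + HFD values. Csf1r read 11.01, 10.62, 12.95 and 12.37 in F + LFD and 10.91, 10.66, 12.13 and 10.95 in F + HFD, with a difference of -0.58 and a 95% interval of -1.84 to 0.69. The second, dimmer Csf1r probe differed by 0.17. Itgam was the marker that was not lower, at 0.10 ± 0.28 (SE).

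**Figure D2:**
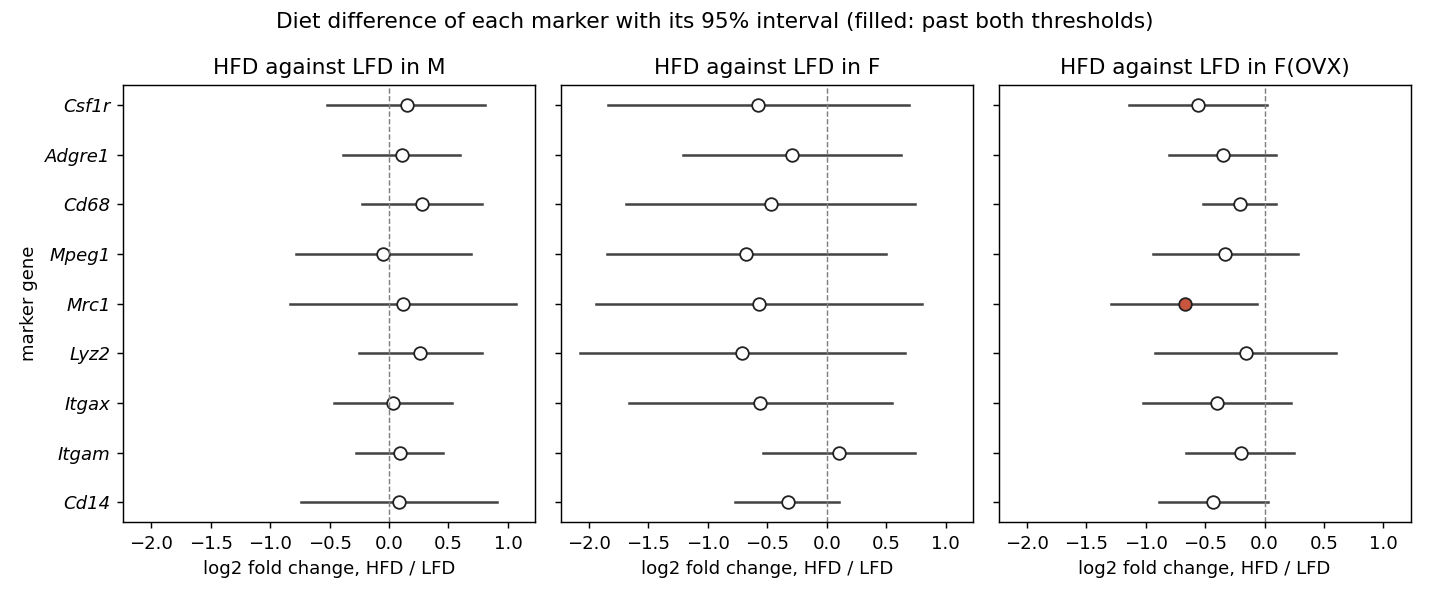
Each circle is the log2 fold change of HFD over LFD of 1 marker on the horizontal axis, with its 95% interval from limma as a line, in M, F and F(OVX). The filled circle, Mrc1 in F(OVX), is the only marker past both thresholds, and the interval of Lyz2 in F runs from -2.08 to 0.66.

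In F the arrays numbered 2 and 3 stood apart in the same direction on both diets. F + LFD 3 and F + HFD 3 were both high, with a mean deviation of the 9 markers from their groups of 0.84 and 0.71 on the log2 scale and 8 of 9 markers above the group mean on each. F + LFD 2 and F + HFD 2 were both low, at -0.74 and -0.50. Over 16830 genes the deviations of same-numbered F arrays correlated at 0.28, 0.45, 0.58 and 0.26, whereas those of M lay between -0.26 and 0.01 and those of F(OVX) between -0.09 and 0.33. In F the number, which is also the column of the slide, was therefore taken to pair the arrays. The labels name no pairs, and this choice was made from these same arrays. In F(OVX) numbers 1, 3 and 4 gave 0.33, 0.32 and 0.25, close to the lower F values, and number 2 gave -0.09. The p-values of the paired fits in F rest on this choice.

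Taken pair by pair, the markers of F were lower on HFD in most pairs. For Mpeg1, the pore-forming protein of phagocytes, the 4 differences between F + HFD and F + LFD were -0.45, -0.64, -0.71 and -0.92. All 4 pairs were lower, with a mean of -0.68 ± 0.13 (SE), and in the fit that kept the replicate number as a block Mpeg1 was called (limma unadjusted p = 0.00233, adjusted p = 0.666). It was the 1 marker of 9 called in this fit, in which 2.66% of all genes were called. The second, dimmer Mpeg1 probe differed by only -0.02 in F in the fit without the block. That probe was well above background on 4 F + LFD and 3 F + HFD arrays. Cd68 was lower in all 4 pairs, by 0.11, 0.62, 0.39 and 0.77, with a mean of -0.47 ± 0.15 (SE, limma unadjusted p = 0.0218, adjusted p = 0.666) that did not reach a fold change of 1.5. Itgax (mean -0.56 ± 0.17, SE) and Cd14 (mean -0.33 ± 0.12, SE) were likewise lower in all 4 pairs. Neither reached a fold change of 1.5. Csf1r, Adgre1, Mrc1 and Lyz2 were lower in 3 of 4 pairs, and Itgam in 2 of 4. An exact test of 4 pairs over 16 sign assignments cannot go below p = 0.125, the value Mpeg1, Cd68, Itgax and Cd14 reached. Without both arrays numbered 3 the blocked fit gave Mpeg1 -0.67 and again called it alone, and the fit without the block called 0.

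**Figure D3:**
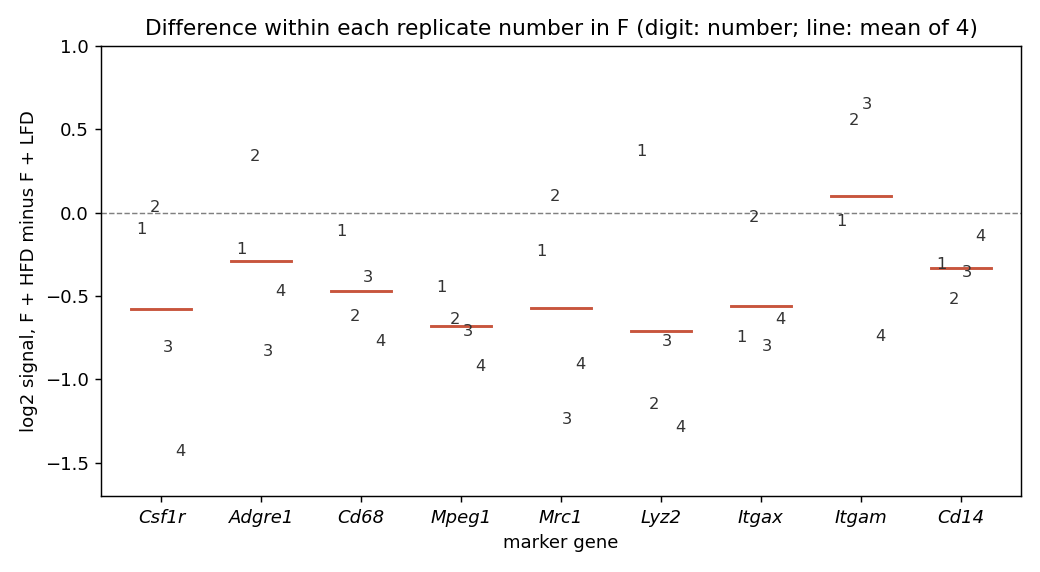
The vertical axis is the log2 signal of F + HFD minus that of F + LFD within a replicate number, for the 9 markers on the horizontal axis. Digits are the 4 numbers and the line is their mean, and all 4 digits lie below 0 for Cd68, Mpeg1, Itgax and Cd14.

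Counted by pair, 8 of 9 markers were lower on HFD in pair 1, 5 in pair 2, 8 in pair 3 and all 9 in pair 4, with median differences of -0.22, -0.03, -0.77 and -0.77. These counts are not of separate observations, since the markers other than Itgam and Cd14 varied together in F (median r 0.90).

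In F(OVX) all 9 markers were lower on HFD, and Mrc1, the mannose receptor, was called. It read 8.24, 8.46, 7.77 and 9.11 in F(OVX) + LFD and 7.92, 7.42, 7.71 and 7.83 in F(OVX) + HFD. LFD replicate 3 fell within the HFD values, so the groups overlapped. The difference was -0.67 ± 0.27 (SE), with a limma unadjusted p of 0.0342 and an adjusted p of 1, and the exact permutation p was 0.0857. Mrc1 was 1 marker called of 9, where 2.19% of 19211 genes were called. With the methods' t-test, with normexp background correction and with all 24 arrays in the fit it was not called, and 0 markers were. Leaving out F(OVX) + LFD 4, its highest array, moved the difference to -0.44 and ended the call, and so did leaving out F(OVX) + LFD 2 or F(OVX) + HFD 2, 3 or 4 (-0.65, -0.58, -0.67 and -0.71).

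The other markers of F(OVX) ranged from -0.56 for Csf1r to -0.16 for Lyz2, around a median of -0.35 (-0.195 without F(OVX) + HFD 2), against 0.011 for all genes. Csf1r read 11.65, 11.35, 11.28 and 11.38 on LFD and 11.32, 10.22, 10.61 and 11.28 on HFD (limma unadjusted p = 0.0574, adjusted p = 1). It was tight on LFD and divided into a lower and a higher pair on HFD. Cd14 read 12.44, 11.61, 12.14 and 12.37 on LFD and 11.89, 11.62, 11.51 and 11.82 on HFD, a difference of -0.43 ± 0.20 (SE, limma unadjusted p = 0.0649, adjusted p = 1). Its LFD replicate 2 was as low as the HFD arrays, and without that array Cd14 was called at -0.61. Csf1r was called at -0.71 without F(OVX) + HFD 1 and at -0.70 without F(OVX) + HFD 4. Cd68 differed by -0.21 with the smallest exact permutation p of the markers, 0.0571.

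Markers of other cells moved in the same comparisons. All 6 genes carried by every leukocyte, such as Ptprc, were lower on HFD in F (median -0.28) and in F(OVX) (median -0.29), with 0 called, and their mean level per array ran from 9.71 to 10.61 in F(OVX) + LFD and from 8.61 to 10.67 in F(OVX) + HFD. Dendritic cell genes were lower in 5 of 5 in F(OVX) (median -0.46, 1 called) and 4 of 5 in F (-0.36). T cell genes were lower in 6 of 7 in each (-0.19 in F(OVX) and -0.34 in F). All 6 B and plasma cell genes were lower in F(OVX) (-0.56, 1 called), and 4 of 6 were higher in F (0.21). Of 4 mast cell genes, 3 were higher in F(OVX) (0.43) and all 4 lower in F (-0.46). All 6 smooth muscle genes were higher on HFD in F(OVX), with 4 called and a median of 0.84, and their mean level ran from 11.49 to 12.85 on LFD and from 12.78 to 14.09 on HFD. In F the 6 smooth muscle genes were also higher, with a median of 0.46 and 0 called. Of the 7 epithelial genes, 6 were higher on HFD in F(OVX), with a median of 0.22 and 0 called. The part of the tissue mixture in the marker differences was not tested.

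Whether the diet differences themselves differed between kinds of mouse was tested in a fit of all 24 arrays, and 0 of 9 markers were called, or had an unadjusted p under 0.05 in limma, in each of the 3 tests. The diet difference in M minus that in F had a median of 0.63 over the markers and ranged from -0.02 for Itgam to 0.97 for Lyz2, with an interval of -0.36 to 2.31 for Lyz2, and 2.95% of all genes were called. With a replicate block in all 3 kinds of mouse, Cd68 (0.75), Lyz2 (0.97) and Mpeg1 (0.63) were called. The limma adjusted p was 0.798 for each, and 5.14% of all genes were called. This block also pairs the M arrays, whose same-numbered deviations correlated only between -0.26 and 0.01. Leaving out F + HFD 3 called Cd68, at 1.16 (limma adjusted p = 0.735), while the genes called over the whole array rose from 660 to 1235. M minus F(OVX) had a median of 0.45 and all 9 markers above 0, in a test that called 6.33% of all genes. F(OVX) minus F had a median of 0.02 and called 1.5% of all genes. The average diet difference of the 3 kinds of mouse was below 0 for all 9 markers, with a median of -0.23 and a smallest unadjusted p of 0.159, and 0 were called against 0.773% of all genes. The comparisons share arrays and are not independent of one another.

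Comparisons between the kinds of mouse on the same diet are also between slides, so that sex or surgery cannot be told apart from the slide. Among them Cd14 was the 1 marker called, lower in M + LFD than in F + LFD, where 5.04% of all genes were called. It read 11, 11.02, 11.94 and 12.19 in M + LFD and 11.81, 12.17, 12.20 and 12.35 in F + LFD, so that 2 male arrays were low and the other 2 lay among the females. The difference was -0.60 ± 0.28 (SE, limma unadjusted p = 0.0451, adjusted p = 0.504), with an exact permutation p of 0.171. The low arrays were M + LFD 1 and M + LFD 2, those with little Hoxb13, and without them the difference was -0.07. Without either of them alone the difference was -0.42 and Cd14 was not called. The number of markers called also turned on the female arrays. Without F + LFD 2 it was 7, Adgre1, Cd68, Csf1r, Itgax, Lyz2, Mpeg1 and Mrc1, each lower in M + LFD by 0.75 to 1.08. The limma adjusted p-values of these 7 lay between 0.297 and 0.381. The share of 5.04% is from the fit of all arrays, and the share without F + LFD 2 is not given here. Without F + LFD 3 the number of markers called was 0.

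On HFD 0 of 9 markers were called, or had an unadjusted p under 0.05 in limma, between M and F, where 7.55% of all genes were, and their median difference was 0.04. Between F(OVX) and F, 0 markers were called on LFD (1.65% of all genes, marker median -0.26) and 0 on HFD (1.97%, marker median -0.09). The uncertain Itgam probe had the highest difference of M over F on both diets, at 0.39 ± 0.23 (SE) on LFD and 0.37 ± 0.22 (SE) on HFD, and was not called on either.

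Within groups, 7 of the markers varied together from array to array. Over the 24 arrays, after each group mean was removed, the 21 pairs among Csf1r, Adgre1, Cd68, Mpeg1, Mrc1, Lyz2 and Itgax had Pearson's r between 0.51 and 0.89 with a median of 0.76, and Spearman's rho between 0.47 and 0.88. Csf1r and Itgax were the closest pair, with r = 0.89 and rho = 0.86 (permutation p = 1e-05 for r, the smallest that 100000 resamples can give, and 6e-05 for rho). Without the 2 arrays farthest from the median, F + LFD 3 and F + LFD 2, that r was 0.83. The 21 values were between 0.30 and 0.85 when the 2 farthest arrays were left out, and between 0.41 and 0.87 without F + LFD 3. In all 36 pairs were computed, and the p-values are unadjusted.

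The closeness was greatest in F, where the 21 pairs had a median r of 0.90 over 8 arrays, against 0.59 in M and 0.63 in F(OVX). These within-slide values are a description, and their difference was not tested. In F(OVX) the 21 values ran from -0.03 (Adgre1 and Mrc1) to 0.92 (Csf1r and Itgax). Adgre1 and Mpeg1, and also Mrc1 and Cd68, had r = 0.15 there. In M Lyz2 and Itgax followed each other (r = 0.86) and Csf1r (0.64 and 0.77) but not Mrc1 (-0.20 and 0.01), Mpeg1 (-0.08 and 0.07) or Adgre1 (-0.10 and 0.03). Cd14 and the Itgam probe had lower values. Cd14 had r between 0.02 and 0.40 with the other 8 markers, and the Itgam probe between -0.48 and 0.33.

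**Figure D4:**
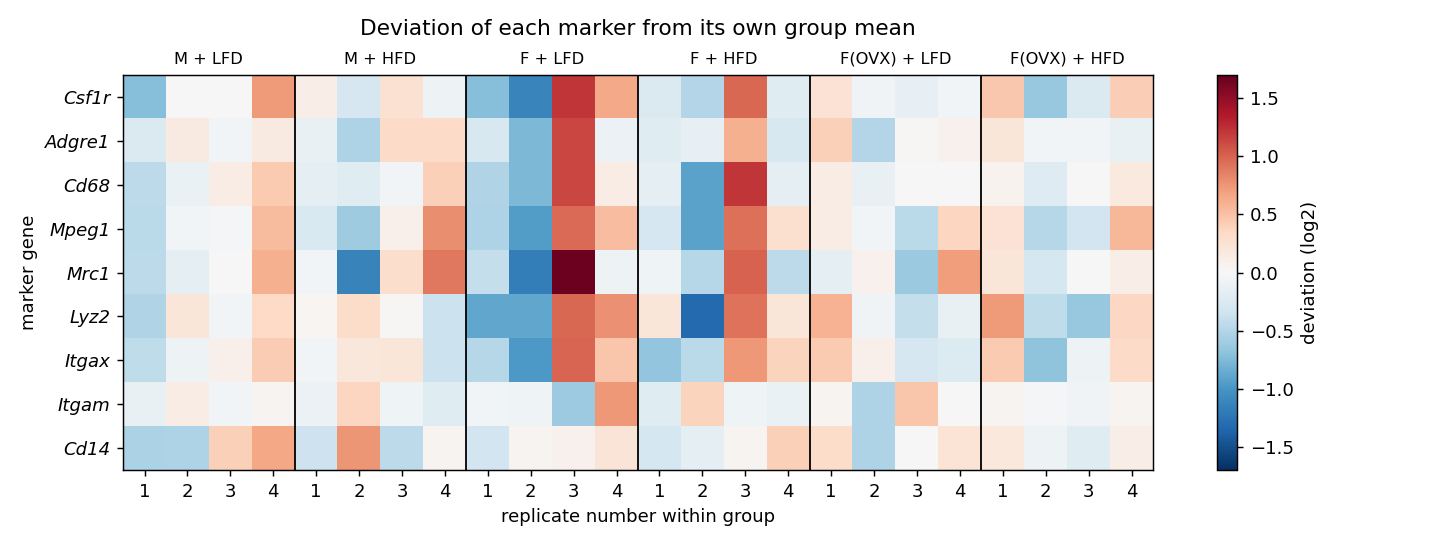
Rows are the 9 markers and columns the 24 arrays by group and replicate number, and the color gives the log2 deviation from the mean of the array's own group. The upper 7 rows are red together on F + LFD 3 and F + HFD 3 and blue together on F + LFD 2, while Itgam and Cd14 follow other arrays.

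Other cell types moved with the same arrays. On F + LFD 3 the mean deviation was 0.84 for the 6 leukocyte genes, 1.14 for 5 B and plasma cell genes, 0.88 for 6 fibroblast genes and 1.20 for 6 smooth muscle genes, and -0.09 for 7 epithelial genes. On F + LFD 2 the leukocyte genes were at -1.06, the fibroblast genes at -0.88 and the epithelial genes at -0.05. On F + HFD 3 the leukocyte genes were at 0.81, the B and plasma cell genes at 0.98, the fibroblast genes at 0.88, the smooth muscle genes at 0.27 and the epithelial genes at -0.16. The part of these genes in the correlations was not tested.

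Of 11870 named genes outside the marker set, those whose deviations followed a marker most closely over the 24 arrays were often genes of immune cells. Csf1r was followed by Lsp1, a leukocyte cytoskeletal protein, and C1qc, a chain of complement C1q, both at r = 0.94. C1qc was also among the nearest pair of Cd68 (0.91, with Rgs10) and Adgre1 (0.87, with the scavenger receptor Stab1). Mpeg1 was followed by the chemokine Cxcl16 (0.95) and by Gypc (0.91), and Itgax by Adam8 (0.94) and the MHC class II gene H2-Eb1 (0.93). Mrc1 was nearest to Itgb3 and Ttc28 (both 0.91), and Lyz2 to Adcy7 and Snn (both 0.93). Cd14 was nearest to Sting1 (0.86), the sensor adaptor of cytosolic DNA, and Apobec3 (0.83). Itgam was nearest to Idua and Zfp663 (both 0.98), genes not known as myeloid markers. These are the highest of many correlations and carry no test.

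Where a gene had a second probe, its reading bore on how far the first can be trusted. The probes of Cd14 moved together (r = 0.96 over 24 arrays), as did those of Cd68 (0.87). Both probes of Csf1r were well above background on all 24 arrays, yet their deviations correlated at -0.40. The second Csf1r probe differed between diets by 0.08 in M, 0.17 in F and -0.11 in F(OVX), where the brightest gave 0.15, -0.58 and -0.56. The second probes of Itgam (r = 0.09) and Adgre1 (r = -0.03) were well above background on 1 array and 0 arrays, and give no check. The second Mpeg1 probe, well above background on 16 arrays, correlated at 0.23 and differed by -0.02 between diets in F. Lyz2 has a close copy, Lyz1, of very similar sequence, so that its level is uncertain. The Lyz1 probe differed between diets by 0.40 in M, -0.46 in F and -0.53 in F(OVX), and Lyz2 by 0.26, -0.71 and -0.16.

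Beyond the markers, 115 genes of the macrophage pathway were followed in 9 lists. In M 3 of 90 measured genes were called higher on HFD and 1 lower, in F 0 of 94 higher and 5 lower, and in F(OVX) 0 of 85 higher and 6 lower, with medians of 0.04, -0.25 and -0.15. Over all genes 4.3%, 1.2% and 2.19% were called in these comparisons. With the replicate block 0 of 94 genes were called higher and 11 lower in F, where 2.66% of all genes were called. Values in F below come from the fit without the block unless the block is named. All values below are calls on unadjusted p-values.

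The recruitment list, with the chemokines that draw monocytes and the factors that sustain them, held calls in F. Ccl2, the main monocyte chemokine, read 8.43, 7.60, 8.72 and 8.48 in F + LFD and 6.99, 6.03, 7.26 and 7.66 in F + HFD. The groups overlapped only in LFD replicate 2 and HFD replicate 4, and the difference was -1.32 ± 0.37 (SE, limma unadjusted p = 0.00702, adjusted p = 0.991). Its receptor Ccr2 was lower by 1.38 ± 0.53 (SE), with no overlap of the groups, and was well above background on 3 of the 4 F + HFD arrays. In M this list held 1 call in the other direction. Il34, the second ligand of Csf1r, read 7.35, 7.95, 8.71 and 9.07 in M + LFD and 9.54, 9.78, 9.46 and 10.74 in M + HFD, without overlap, a difference of 1.61 ± 0.42 (SE, limma unadjusted p = 0.00446, adjusted p = 0.8). The lowest values were those of M + LFD 1 and 2. In F(OVX) 0 of the 9 measured genes of the list were called, and 8 were lower.

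Of the activation genes, Nos2 and Ccl17 were called in F(OVX), both lower on HFD. Nos2, the inducible nitric oxide synthase of inflammatory macrophages, read 9.74, 8.92, 10.01 and 9.47 in F(OVX) + LFD and 6.69, 7.29, 7.62 and 8.48 in F(OVX) + HFD. The groups did not overlap, and the difference was -2.02 ± 0.38 (SE, limma unadjusted p = 0.000493, adjusted p = 1). Nos2 was the 1 call among 7 measured genes of inflammatory activation, and epithelium can also make it. Ccl17, a chemokine linked to alternative activation, was lower by 2.04 ± 0.43 (SE) in F(OVX) without overlap, and higher by 0.96 ± 0.42 (SE) in M, the single call among 6 genes of that list in each. In M the other 5 genes of the list were lower on HFD, with a median of -0.31 over the 6. In F(OVX) 4 were lower and 2 higher, also with a median of -0.31. In F 0 genes of either activation list were called without the block, and all 9 and all 7 measured members had lower means on HFD, with medians of -0.70 and -0.53. With the replicate block Nos2 (-1.46 ± 0.45, SE), Il1b (-0.83 ± 0.17, SE) and Ccl17 (-0.81 ± 0.29, SE) were called in F, with limma adjusted p = 0.666 for each.

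Partners of the integrins and Fc receptors gave 2 calls of 9 in F(OVX). Tyrobp, the signalling adaptor of myeloid receptors, was lower by 0.63 ± 0.23 (SE), without overlap, and Fcgr1, the high-affinity receptor for IgG, by 0.68 ± 0.28 (SE). In F 0 of 10 were called, with all 10 lower (median -0.47), and in M 0 of 11. With the replicate block Fcgr3 (-0.68) and Fcgr2b (-0.62), a pair of IgG receptors, were called in F. Of the lineage transcription factors, Maf was lower in F(OVX) by 0.59 and Nr4a1 in F by 0.80, each the 1 call of 11, and with the replicate block 0 were called in F. Of the genes of inflammatory monocytes, Ms4a6c was lower in F(OVX) by 0.84, the 1 call of 8, and F13a1 was called in F with the replicate block (-1.12).

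In the list around Cd14, Tlr2 was lower in M by 0.83 ± 0.35 (SE) and Tlr6 in F by 0.64 ± 0.24 (SE), each the 1 call of 13, and 0 of 12 were called in F(OVX). Among 13 lysosomal genes, 0 were called in F and F(OVX). The genes of tissue macrophages and scavenging, such as C1qa, gave 0 calls in any diet comparison, of 10, 11 and 10 measured. Their medians were 0.22 in M, -0.31 in F and -0.38 in F(OVX), with 9 of 10 higher in M and 10 of 11 lower in F.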

How the data were processed

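RNA of 24 colons was hybridized by the authors to Agilent 1-color mouse arrays and extracted with Feature Extraction 11.0.1.1. They deposited linear spot intensities, with background and spatial trends removed within an array, and flags for outlier, saturated (0 spots) and well-above-background spots. Groups and replicate numbers came from the labels. Control spots were dropped, outlier spots set to missing, and log2 intensity quantile-normalized over the 24 arrays in R 4.3.3, with spots of a probe averaged. Accessions were matched to RefSeq (GRCm38.p6), which named 32994 of 56605 probes, and the brightest probe stood for a gene. A gene entered a test if its probe was well above background throughout either group. Tests used lmFit and eBayes of limma 3.58.1, on the 8 arrays of a diet comparison and on all 24 otherwise, with Benjamini-Hochberg adjustment over all genes tested, and were checked on simulated data. Per array 40.5% to 61.9% of probes were well above background, and the number of arrays limits precision. The methods count animals, and the labels give separate samples without naming the animal, so p-values measure the spread between these samples.

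Named genes were the 10 markers, of each list the genes called in a diet comparison (at most 4 per list and comparison) or the first gene, the 2 nearest genes of each marker, Lyz1 and Hoxb13. Some genes that this rule names are not reported here. The markers and lists were chosen with earlier results of these data known. Same-numbered arrays of F deviated together, with r of 0.26 to 0.58 over 16830 genes, so that they were taken as pairs. This choice was made from these same data and is not given by the labels. Other normalizations, filters, tests and left-out arrays are given at the end.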

Additional observations from a re-analysis of the deposited data

Results flagged for a closer look

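Of 54 sets of 4 arrays (9 markers in 6 groups), 1 held an array far from the other 3. Adgre1 read 9.36 on F + HFD 3 and at most 8.61 on the other F + HFD arrays, a gap of 0.854 of the whole range of the group. About 1 set in 20 would be marked by chance. F + HFD 3 was also high for most other markers.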

How the results depend on the processing

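No marker called in a comparison changed its direction under an alternative. The 9 markers in the 3 diet comparisons and Cd14 in M + LFD against F + LFD gave 484 values under alternatives, of which 437 kept direction and side of the thresholds, 26 that were not called changed sign, 17 lost a call and 4 gained one. In F the number of markers called was 0, and 1 (Mpeg1) with the replicate block, also 1 with F + LFD 3 and F + HFD 3 both left out and the replicate block, an alternative chosen after seeing the data, and 0 with both left out and no block. Leaving out 1 array moved the median difference in F between -0.882 (without F + LFD 2) and -0.176 (without F + LFD 3). In F(OVX) the count was 0 in place of 1 with normexp background correction, with the methods' t-test and with all 24 arrays in the fit, and 0 to 2 when 1 array was left out. For the diet difference in M minus that in F it was 3 with the replicate block and 0 to 1 with 1 array left out. For M + LFD against F + LFD it was 0 with scaling to the 75th percentile, normexp, the mean of all probes of a gene, or M + LFD 1 and 2 both left out, 2 (Cd14 and Cd68) with the replicate block, and 0 to 7 with 1 array left out. The replicate number was taken as a pair in F alone, a choice made from these same data. In F(OVX) its correlations, between -0.09 and 0.33, overlapped those of F. The block changed no other number of markers called. The genes called in F rose from 264 to 587 with the replicate block, fell to 80 with normexp and 125 with the methods' t-test, and were 627 with no filter and 108 with probes above background on all arrays. In F(OVX) they were 421, and 269, 209, 843 and 251 with normexp, the t-test, no filter and all 24 arrays, and in M 882, and 567 and 489 with normexp and the t-test. Leaving out 1 array gave 163 (without F + LFD 4) to 733 (without F + LFD 2) in F, 218 (without F(OVX) + HFD 2) to 708 (without F(OVX) + LFD 3) in F(OVX) and 585 (without M + HFD 1) to 1510 (without M + LFD 4) in M. The causes were not tested.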
